A study of Mus musculus with 4 samples.

Results

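Integrins are the transmembrane receptors by which cells hold on to the extracellular matrix, and each is a pair of an α and a β chain. The open chromatin around 10 integrin genes (Itga2, Itga3, Itga5, Itga6, Itgav, Itgb1, Itgb3, Itgb4, Itgb5 and Itgb6) was examined here in EpRas cells, a mouse mammary gland epithelial cell line (EpH4) transformed with active H-Ras. Every FAIRE peak that overlapped the mm10 body of a member gene or the 50 kb upstream of its start was taken as belonging to that gene. The rule used positions and gene symbols, not the signal. Merged over libraries, the loci held 75 of the 35796 regions of the series.

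In epithelium, the Itga6 and Itgb4 chains pair into the laminin receptor of the hemidesmosome, which ties basal cells to the basement membrane through the keratin network. The fibronectin-binding chains contact the interstitial matrix instead: Itga5 pairs with Itgb1 in the classical fibronectin receptor, Itgav pairs with several β chains, and Itgb3 and Itgb6 are among them. Itga2 with Itgb1 is a collagen receptor, Itga3 with Itgb1 binds laminins, and Itgav with Itgb5 binds vitronectin. Epithelial-mesenchymal transition (EMT), which TGF-β can induce in such cells, is known for a shift from basement membrane contacts to contacts with fibronectin, so the hemidesmosome genes (Itga6, Itgb4) were set beside the fibronectin-binding ones (Itga5, Itgav, Itgb3, Itgb6).

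FAIRE-seq reads out the DNA that formaldehyde leaves unbound by nucleosomes, that is, open chromatin. All 4 libraries were siRNA-transfected EpRas cells, fixed after 4 days with or without TGF-β: untreated control siRNA cells (siControl), the same with TGF-β3 at 1 ng/ml (TGF-β-treated siControl), and siEtv4/5 set 1 or siEtv4/5 set 2, which are separate siRNA sets against the ETS factors Etv4 and Etv5, each with TGF-β at 1 ng/ml. All cells carried active H-Ras, and knockdown was given with TGF-β only. Peak lists hold no measure of Etv4 or Etv5 RNA, so the knockdown was not checked here. Each group had 1 peak list and no replicate, so no test of a condition was possible and no p-value is given. The study describes biological replicates, which may have been pooled in each list, and the spread between them could not be measured. Intervals of fragments and their ratios below cover counting error only, and reads without molecular identifiers are not independent molecules. Intervals of shares treat peaks or regions as independent, though those of the members cluster in 10 loci. They measure no spread between replicates.

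The lists held 14925 to 28754 peaks at an estimated depth of 15.3 M to 20.7 M reads, and the deepest library (set 2) had the fewest peaks and the lowest median fold enrichment, 7.15 against 7.91 to 8.44 in the others. This difference in depth and peak number moved with every comparison of set 2 below, and its part in them was not tested. A region without a peak is a region under the calling limit, not a closed one. Of 6 epithelial marker genes, 5 (Krt8, Krt18, Krt14, Epcam and Cdh1) had a peak within 2 kb of the start and Krt5 had none in its locus. Of 7 leukocyte markers only Itgb2 had such a promoter peak and Ptprc had no peak at all, and of the endothelial (3) and fibroblast (3) markers 1 each had a promoter peak. A peak in any library counted here. The promoters of Itgb2 and Krt14 were called in 4 libraries, those of Krt8 and Krt18 in 3, Cdh1 in 2 and Epcam in 1. For the platelet marker Itga2b no promoter peak was called.

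Every member had peaks in its locus, with a median of 8 regions a gene against 2 over 21911 protein-coding genes, of which 27.1% had none. Per 100 kb the medians were 6.47 and 1.97. The loci together held 43 peaks in untreated siControl, 58 in TGF-β-treated siControl, 48 with set 1 and 35 with set 2, ranks that the whole lists share. Cut to the 14925 best peaks of each list by q-value, the counts were 32, 30, 34 and 35 in the same order, so the higher count with TGF-β and the lower one with set 2 were not seen at equal list length. Over all peaks called, fold enrichment ran from 4.30 to 19.3 and summit fragments from 13 to 60. The densest locus was Itga3, with 11 regions in 82.3 kb, and the sparsest was Itga6, with 3 regions in 162.8 kb. Regions lay mostly outside promoters: 43 were in introns, 7 in exons and 25 between genes, and 17 (22.7%) were within 2 kb of a transcription start site (TSS), against 32.8% over all regions. The nearest TSS belonged to the member gene for 43 regions, so the others cannot be assigned to an integrin gene by distance alone.

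**Figure D1:**
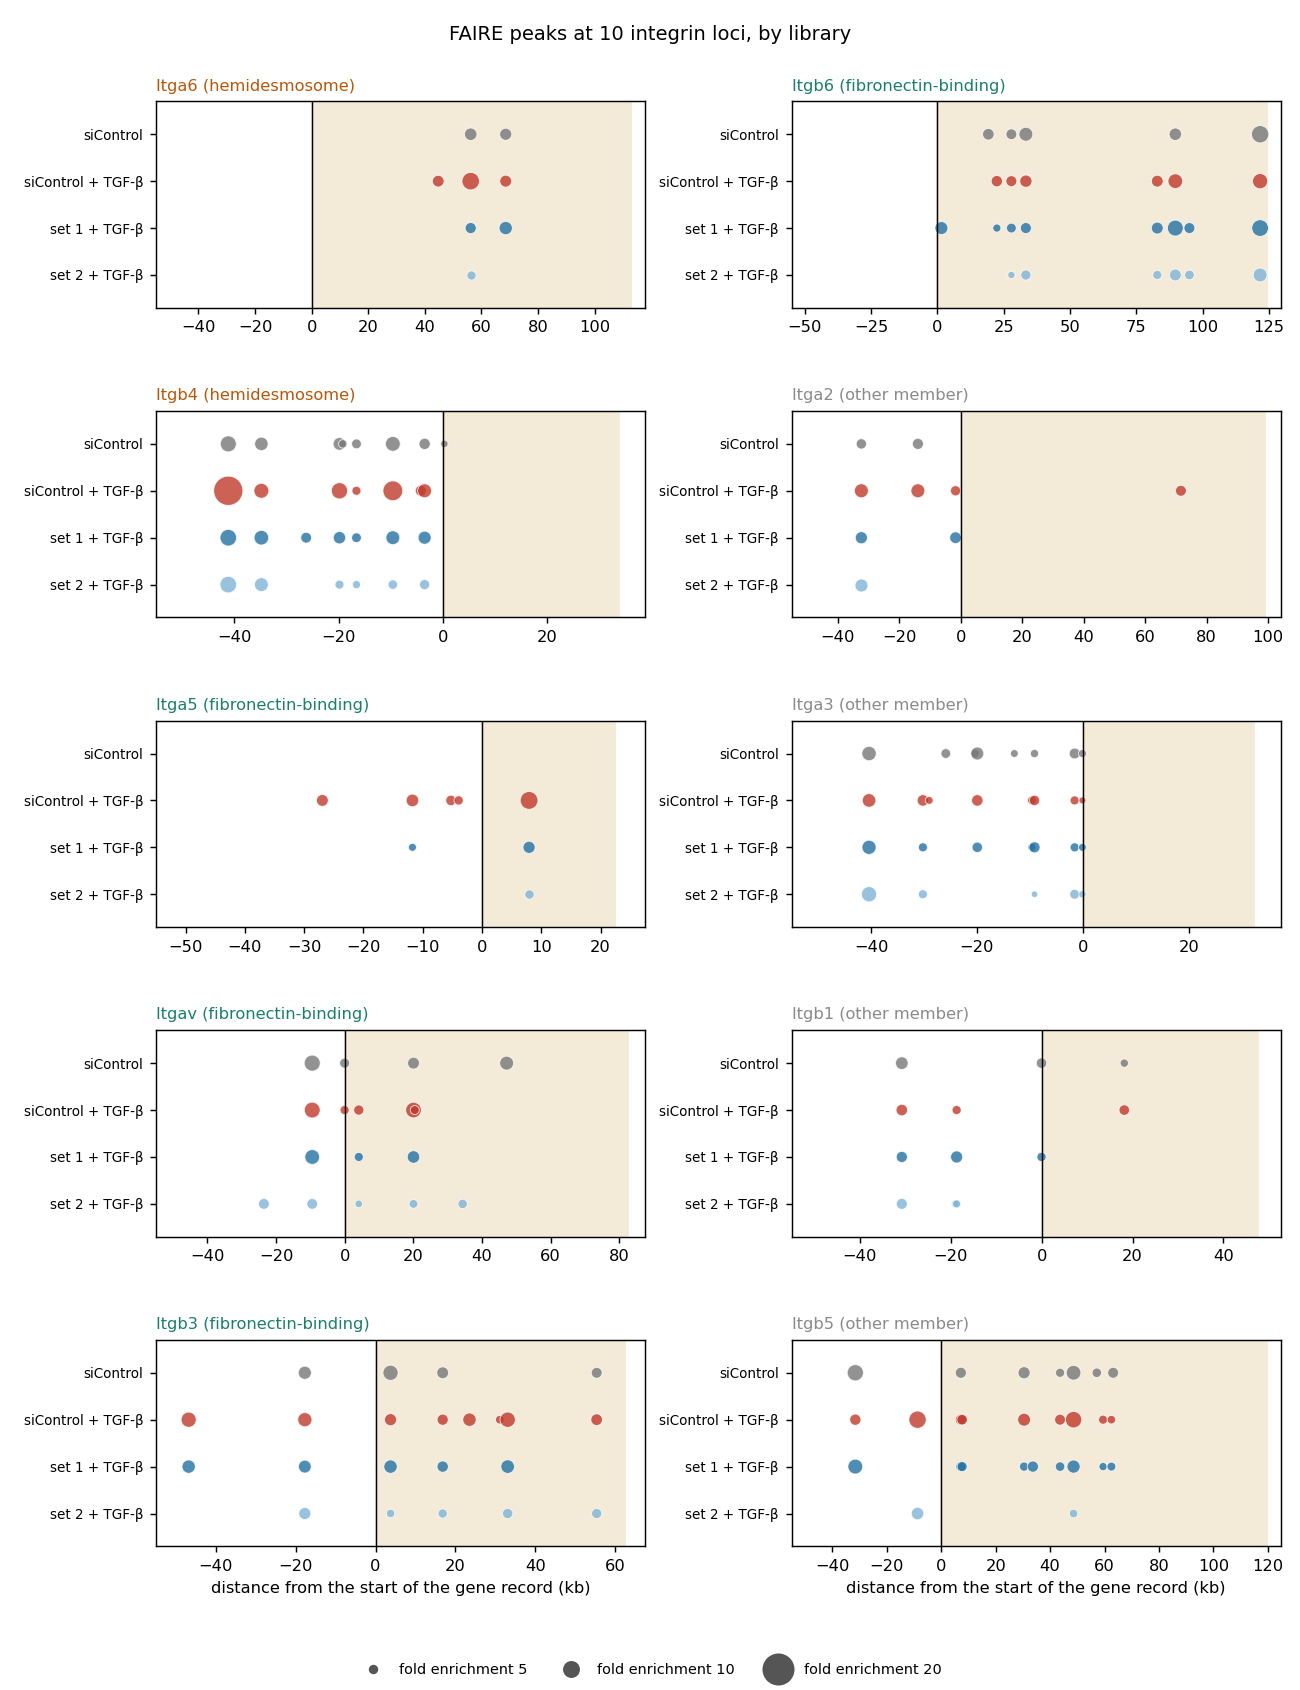
FAIRE peaks at the 10 integrin loci by distance from the start of the GENCODE gene record (kb, x axis) in the 4 libraries (rows, with set 1 and set 2 for the siEtv4/5 sets); the shaded stretch is the gene body and the area of a dot grows with the square of its fold enrichment. Itga5 has no dot in untreated siControl and 5 with TGF-β, and the largest dot, at a fold enrichment of 19.3, lies 41.1 kb upstream of Itgb4.

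The peak counts of the hemidesmosome and the fibronectin-binding loci are set side by side, with no test of the difference. At Itga6 and Itgb4 the number of peaks was 10 both without and with TGF-β, whereas at Itga5, Itgav, Itgb3 and Itgb6 it was 13 without and 24 with TGF-β. At equal list length this difference was smaller, with counts of 8 and 7 at the hemidesmosome loci and 11 and 14 at the fibronectin-binding loci. A peak of TGF-β-treated siControl without an overlapping peak in the untreated list is called gained, and the reverse lost. Gained peaks made up 2 of 10 (20.0%) at the hemidesmosome loci and 13 of 24 (54.2%) at the fibronectin-binding loci. Of these 13, 5 were at Itga5, 4 at Itgb3 and 2 each at Itgav and Itgb6. Itga5 had no untreated peak, so every peak there counted as gained, and it weighed heavily in the group share. Over all members 25 of 58 peaks were gained (43.1%, 95% Wilson interval 31.2 to 55.9), against 37.0% of all peaks of that list. The 10 genes as a set were thus near the background. Lost peaks were 10 of 43 (23.3%, 13.2 to 37.7) over the members, against 18.4% of all untreated peaks, with 2 of 10 at the hemidesmosome loci and 2 of 13 at the fibronectin-binding loci. At equal list length 10 of 30 were gained and 12 of 32 lost, so the excess of gained over lost peaks was not seen there.

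The regions called in all 4 libraries showed a different order. There were 23 of them, 7 at the hemidesmosome loci (1 at Itga6 and 6 at Itgb4), 9 at the fibronectin-binding loci and 7 at the others, and Itga5 had none. Of the 6 at Itgb4, all but that 3.5 kb upstream had their summit inside the neighbouring gene Sap30bp. With TGF-β against untreated, the median log2 ratio of fold enrichment was 0.36 at the hemidesmosome loci, with values from -0.12 to 0.87, and -0.021 at the fibronectin-binding loci, with values from -0.32 to 0.40. The ranges overlapped, and in depth-scaled fragments the fibronectin-binding median was 0.073, above 0. The median over all 10594 regions called in all 4 libraries was 0.14, with the middle 50% between -0.057 and 0.34, so the hemidesmosome median lay just above this range and the fibronectin-binding median inside it. The ratio was above 0 in 6 of 7 hemidesmosome regions and 4 of 9 fibronectin-binding regions, against 68.3% of all such regions. A fold enrichment past 1.5-fold higher was seen in 1 of the 23 (background 6.54%), 41.1 kb upstream of Itgb4, and past 1.5-fold lower in 0 (background 0.821%).

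**Figure D2:**
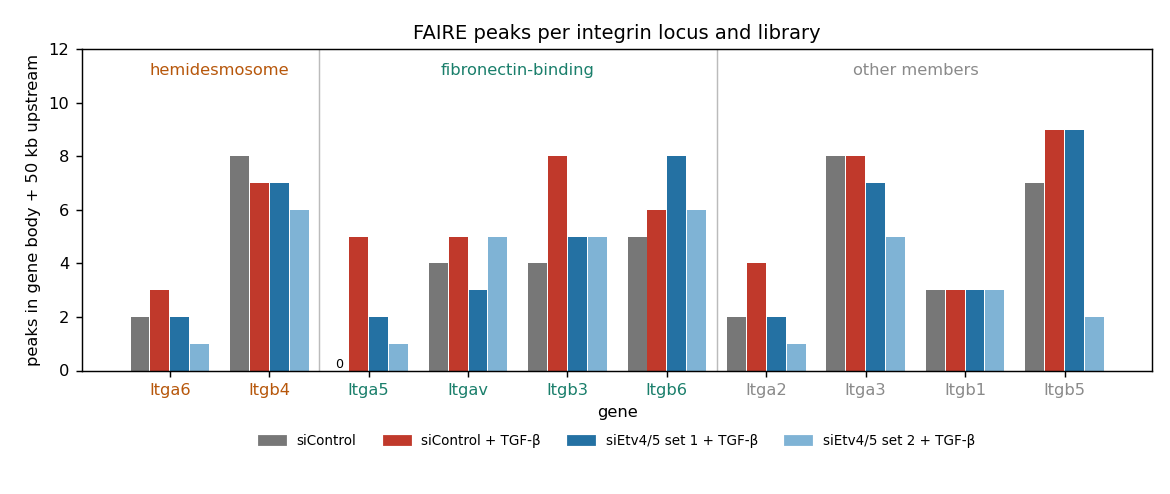
Number of FAIRE peaks (y axis) in the gene body and 50 kb upstream of each integrin gene (x axis), with 1 bar per library and no error since each group has 1 list. Itga5 stands at 0, 5, 2 and 1 in the order untreated, TGF-β, set 1 and set 2, and Itgb5 at 7, 9, 9 and 2.

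Itga5, the α chain of the classical fibronectin receptor, was the member with no peak in untreated siControl cells. The locus (chr15:103344286-103416763 on mm10, minus strand) had 5 peaks in TGF-β-treated siControl, 2 with set 1 and 1 with set 2. Such a pattern of 0 untreated peaks and at least 5 with TGF-β was seen at 8 of 21911 protein-coding loci (0.0365%), a description of these lists, since the count was set to match Itga5. At equal list length Itga5 had 2 peaks with TGF-β and 1 each with set 1 and set 2. No peak covered the Itga5 promoter in any library. The strongest region lay in an intron 7.94 kb into the gene, with a fold enrichment (summit signal over local background) of 11.8 (31 fragments at the summit) in TGF-β-treated siControl, 8.05 (20 fragments) with set 1 and 6.18 (16 fragments) with set 2. In the untreated library, peaks with a like background were called from 11 fragments up. Scaled to equal depth, set 2 held 0.406 times the fragments of TGF-β-treated siControl (95% exact interval 0.208 to 0.766) and set 1 held 0.608 times (0.328 to 1.10), so only the interval of set 2 left out 1. In log2 these ratios were -1.30 and -0.719. Over the 10594 regions called in all 4 libraries, the medians of this measure were -0.707 with set 2 and -0.262 with set 1. Intervals below 1 were seen at 33.2% of all regions called in both lists for set 2, and at 4.05% for set 1. The ratios of single regions given below have this same background.

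The other Itga5 regions lay upstream. At 11.7 kb upstream, 0.431 kb from the start of the annotated gene Gm37322, the fold enrichment was 8.35 (32 fragments) with TGF-β in siControl and 5.29 (16 fragments) with set 1, and no peak was called in untreated cells or with set 2. Set 1 held 0.471 times the depth-scaled fragments (0.241 to 0.884). The regions 26.9, 5.24 and 3.94 kb upstream had a peak only in TGF-β-treated siControl, with fold enrichments of 7.82, 6.88 and 6.13 and 22, 27 and 26 fragments. At backgrounds like theirs, the lists without a peak called peaks from 12 to 18 fragments up, below the counts in TGF-β-treated siControl.

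Sequences are shown where the letters bear on the motif counts given further on: the plus strand of the peak as called in TGF-β-treated siControl, 5′ to 3′ (mm10, read from the RefSeq copy of GRCm38), with AP-1 words (TGACTCA or its reverse complement) and ETS words (CCGGAAG or CAGGAAG, on either strand) in capitals. The intronic Itga5 region that was strongest with TGF-β held neither word, whereas the region 3.94 kb upstream held 2 AP-1 words.
Itga5 intron, 7.94 kb into the gene, chr15:103358713-103358925: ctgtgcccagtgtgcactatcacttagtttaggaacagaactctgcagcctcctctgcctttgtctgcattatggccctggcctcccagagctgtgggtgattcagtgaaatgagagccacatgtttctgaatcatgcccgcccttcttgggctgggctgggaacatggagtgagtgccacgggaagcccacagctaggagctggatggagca
Itga5 upstream, 3.94 kb, chr15:103370612-103370764: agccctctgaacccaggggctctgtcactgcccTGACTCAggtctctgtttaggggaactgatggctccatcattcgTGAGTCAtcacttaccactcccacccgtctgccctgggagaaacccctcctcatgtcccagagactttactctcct

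Itgb4, the β chain of the hemidesmosome, had 10 regions, of which 6 were called in all 4 libraries, the most of any member. All but 1 lay upstream of the gene, and 6 of those had their summit assigned to an intron or exon of Sap30bp, the neighbouring coding gene. The region 26.2 kb upstream had its summit in an exon of the antisense gene Sap30bpos, between regions in Sap30bp introns. The promoter of Itgb4 itself was called in untreated siControl alone, in an exon 6 bp from an annotated Itgb4 start, with a low fold enrichment of 4.98 (21 fragments).

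The region of largest signal at any member locus was the one 41.1 kb upstream of Itgb4 (chr11:115933432-115933731). It lies 87 bp from the start of Recql5, a DNA helicase gene, in an exon of Sap30bp, so it sits at the start of another gene inside the Itgb4 window. Its fold enrichment was 10.6 (27 fragments) in untreated siControl, 19.3 (60 fragments) in TGF-β-treated siControl, 11.0 (33 fragments) with set 1 and 11.0 (35 fragments) with set 2. The value with TGF-β in siControl stood apart, and the other 3 libraries lay close together. The depth-scaled fragments were 2.09 times the untreated value with TGF-β (1.30 to 3.42), and 0.518 times (0.328 to 0.805) and 0.459 times (0.294 to 0.708) the TGF-β value with set 1 and set 2. It was the only 1 of 33 integrin regions called in both siControl libraries whose interval for TGF-β left out 1, on the upper side, as did 2.12% of all regions called in both lists. On the lower side it was 0 of 33, against 0.149%.

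Closer to Itgb4, an exonic Sap30bp region 9.61 kb upstream (chr11:115964905-115965295) had fold enrichments of 9.80, 13.1, 9.17 and 6.26 in the order untreated, TGF-β, set 1 and set 2, with 27, 37, 25 and 18 fragments. Its set 2 value was 0.383 times that of TGF-β-treated siControl in depth-scaled fragments (0.205 to 0.690), while the intervals for TGF-β (0.763 to 2.20) and set 1 (0.367 to 1.09) held 1. An intronic Sap30bp region 19.8 kb upstream of Itgb4 had fold enrichments of 8.43, 10.8, 8.21 and 5.93, with 41, 55, 38 and 27 fragments, and a ratio of 0.387 with set 2 (0.234 to 0.623). Its intervals for TGF-β (0.826 to 1.94) and set 1 (0.419 to 1.002) held 1. Both regions were highest in TGF-β-treated siControl and lowest with set 2. By contrast, the Itgb4 regions 34.8 and 16.6 kb upstream stayed within 8.91 to 9.87 and 5.36 to 6.49 across the 4 libraries. The region 4.26 kb upstream had a peak only in TGF-β-treated siControl, with a fold enrichment of 7.22 (31 fragments).

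Itga6, the α chain of the hemidesmosome, had 3 regions, all in introns, and none at a promoter. The gene record begins upstream of other annotated Itga6 starts, and the strongest region, 56.2 kb into the record, lies 14.9 kb from the nearest annotated Itga6 start (chr2:71801728-71801970). Its fold enrichment was 8.29 (25 fragments) untreated, 11.6 (39 fragments) with TGF-β, 7.37 (21 fragments) with set 1 and 6.11 (19 fragments) with set 2. With TGF-β the depth-scaled fragments were 1.47 times the untreated value, with an interval that held 1 (0.865 to 2.53). They were 0.507 times (0.283 to 0.883) with set 1 and 0.384 times (0.209 to 0.680) with set 2, both intervals below 1. The region 68.6 kb into the record had 8.00, 7.91 and 8.80 in untreated, TGF-β and set 1 and no peak with set 2, and the region at 44.8 kb, 3.39 kb from an Itga6 start, had a peak only in TGF-β-treated siControl at 7.78 (19 fragments).

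An Itga6 and an Itgb4 region are shown that had their highest fold enrichment with TGF-β, lower values with both siRNA sets, and AP-1 words. Itga6 has 2 close together, and Itgb4 has 1 with a separate ETS word. They were picked for these words. The Itgb4 regions 9.61 and 3.5 kb upstream, Itgav 20.1 kb, Itgb5 48.6 kb and Itgb6 27.9 kb into the gene held neither word. They too were highest with TGF-β in siControl and lowest with set 2.
Itga6 intron, 56.2 kb into the record, chr2:71801731-71801969: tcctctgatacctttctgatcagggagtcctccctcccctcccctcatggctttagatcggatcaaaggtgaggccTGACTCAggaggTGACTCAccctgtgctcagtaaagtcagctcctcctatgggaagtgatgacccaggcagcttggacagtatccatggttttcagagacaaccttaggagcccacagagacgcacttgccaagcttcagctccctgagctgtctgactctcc
Itgb4 upstream, 19.8 kb, chr11:115954756-115955001: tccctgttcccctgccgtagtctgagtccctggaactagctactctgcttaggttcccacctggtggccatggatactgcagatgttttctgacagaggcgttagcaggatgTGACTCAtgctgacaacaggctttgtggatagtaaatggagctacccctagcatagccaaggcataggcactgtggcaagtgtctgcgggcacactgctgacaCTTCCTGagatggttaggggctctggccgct

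**Figure D3:**
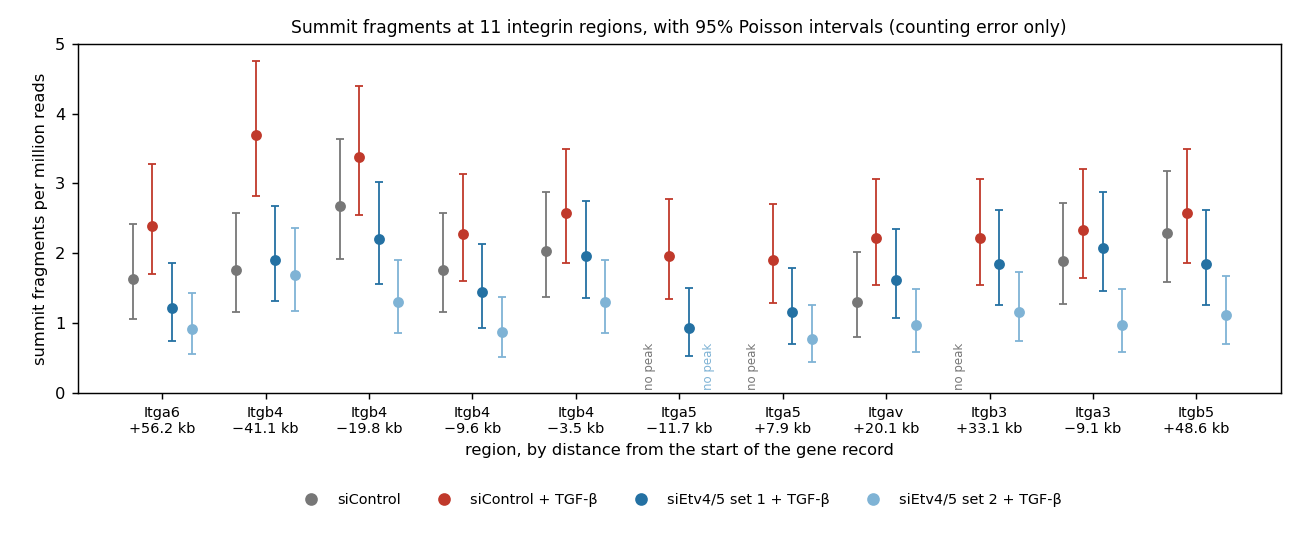
Summit fragments per M reads (y axis) at the 11 integrin regions whose interval left out 1 in any comparison (x axis, by distance from the start of the gene record) in the 4 libraries, with 95% exact Poisson intervals that cover counting error only. TGF-β-treated siControl is the highest point at each region, and set 2 is the lowest wherever it has a peak; the regions were picked for such differences.

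Itgb3, which with Itgav binds fibronectin and vitronectin, had 8 regions, all of them in introns of Itgb3 or of the upstream neighbour Myl4. There were 4 peaks untreated, 8 in TGF-β-treated siControl and 5 in each siRNA library, and 4 were gained. The strongest gained region, in an intron 33.1 kb into the gene (chr11:104640983-104641231), had a fold enrichment of 10.2 (36 fragments) with TGF-β in siControl, 9.03 (32 fragments) with set 1 and 6.85 (24 fragments) with set 2, and it held an AP-1 and an ETS word. It was thus called in all libraries with TGF-β, where peaks of like background were called from 13 fragments up in the untreated list. The region 46.8 kb upstream, in a Myl4 intron, had 10.0 (24 fragments) with TGF-β and 8.84 (23 fragments) with set 1 and no peak in the other lists. Those 23.5 and 31.1 kb into the gene had a peak only in TGF-β-treated siControl, at 8.88 (25 fragments) and 5.71 (19 fragments). The 3 Itgb3 regions called in all libraries did not share this direction: the log2 ratio of TGF-β to untreated was 0.11 at 17.7 kb upstream, -0.32 at 3.75 kb and -0.082 at 16.8 kb into the gene.

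Itgav, the α chain shared by several fibronectin and vitronectin receptors, had 8 regions. The promoter region, 11 bp from the annotated start, was called in both siControl libraries, at 6.63 (21 fragments) untreated and 6.05 (23 fragments) with TGF-β, and in neither siRNA library. The strongest region, 9.46 kb upstream and between genes, had 10.6, 10.5, 9.79 and 7.06 in the order untreated, TGF-β, set 1 and set 2, with 25, 28, 29 and 20 fragments. All its intervals held 1. The region 20.1 kb into the gene, 1.28 kb from a pseudogene start, had 7.85, 10.4, 8.30 and 5.83, with 20, 36, 28 and 20 fragments, and its set 2 ratio in depth-scaled fragments was 0.438 (0.240 to 0.776). Beside it, at 20.4 kb, a region had a peak only in TGF-β-treated siControl, at 5.93 (20 fragments). A region 47.2 kb into the gene was the reverse, with 9.24 (19 fragments) in untreated cells alone. The regions 23.5 kb upstream and 34.4 kb into the gene had a peak with set 2 alone, at 7.10 (22 fragments) and 6.22 (21 fragments).

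The Itgav region 9.46 kb upstream is shown since it carries 2 AP-1 words, the second of which runs into an ETS word with 2 shared bases.
Itgav upstream, 9.46 kb, chr2:83714781-83715037: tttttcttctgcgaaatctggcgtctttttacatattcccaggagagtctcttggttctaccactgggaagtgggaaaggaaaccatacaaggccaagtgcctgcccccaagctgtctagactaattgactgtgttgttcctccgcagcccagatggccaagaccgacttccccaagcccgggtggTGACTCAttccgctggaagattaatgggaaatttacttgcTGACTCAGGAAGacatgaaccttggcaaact

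Itgb6, whose pair with Itgav is known in epithelium for binding fibronectin and activating latent TGF-β, had 9 regions, all within the gene record, and 4 of them were called in all libraries. Peaks numbered 5, 6, 8 and 6 in the order untreated, TGF-β, set 1 and set 2. In the full lists Itgb6 was the only member with more peaks with set 1 than in TGF-β-treated siControl. At equal list length Itgb6 had 6 against 4, and Itga3, Itga6, Itgb1 and Itgb5 also had more with set 1. The strongest region, 121.7 kb into the record, had 11.5, 10.1, 11.1 and 9.19, with 26 to 28 fragments in every library, and its intervals held 1 in every comparison. The region at 82.9 kb was gained and called in all libraries with TGF-β, at 7.83, 7.87 and 5.98, and that at 22.4 kb in TGF-β-treated siControl and set 1, at 7.51 and 5.37. A region 1.49 kb from the start was called with set 1 alone, at 8.60 (19 fragments). All intervals for Itgb6 held 1.

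Among the other members, Itgb5, the vitronectin receptor chain, differed most in number of peaks between the siRNA sets in the full lists, with 9 and 2. At equal list length Itgb5 had 5 with set 1 and 2 with set 2, and Itgav had 2 and 5. Of the 9 Itgb5 peaks in TGF-β-treated siControl, 7 had no peak with set 2 (background 53.6%) and 1 none with set 1 (background 33.6%). The region called in all libraries, in an intron 48.6 kb into the gene (chr16:33878153-33878496), had 9.76, 10.9, 8.71 and 5.65, with 35, 42, 32 and 23 fragments and a set 2 ratio of 0.431 (0.248 to 0.734). The strongest, 8.71 kb upstream, had 11.4 (24 fragments) with TGF-β and 8.24 (20 fragments) with set 2 and no peak in untreated cells or with set 1. The region 31.6 kb upstream, in a Muc13 intron, went the other way with TGF-β, at 10.8 untreated, 7.42 with TGF-β and 9.83 with set 1, but on 21, 15 and 21 fragments.

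Itga3, the laminin receptor chain, was the only member whose promoter was called in all libraries, and the region 72 bp from its start had 5.33, 4.62, 5.15 and 4.85 in the order untreated, TGF-β, set 1 and set 2, with 25 to 30 fragments. The summits of all 11 Itga3 regions lay upstream of the gene and none inside it. Its called regions had a high local background, with a median of 3.96 times the genome-wide floor (the lowest background in a list) untreated and 3.54, 3.18 and 2.81 times in the other lists, against 1.80, 1.36, 1.41 and 1.65 times at Itga6, so a given number of fragments made a lower fold enrichment at Itga3. The strongest region, 40.4 kb upstream, was 2.94 kb from Dlx3, a homeobox gene, and stayed between 8.99 and 10.1. The region 9.12 kb upstream had 5.46, 6.86, 7.35 and 4.30, and a set 2 ratio of 0.414 (0.229 to 0.730). Itga3 held 3 lost and 3 gained peaks.

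Itgb1, the β chain shared by most of the α chains here, had 3 peaks in every library, though not in the same places. The promoter region, 15 bp from the start, had 6.95 (25 fragments) untreated and 6.11 (25 fragments) with set 1, and no peak in TGF-β-treated siControl or with set 2, where peaks of like background were called from 16 and 18 fragments up. The region 30.8 kb upstream, in an exon of the annotated gene Gm45746, had 8.38, 7.62, 7.39 and 7.27. Itga2, the collagen receptor chain, had 4 regions. The region 32.3 kb upstream, in an Itga1 intron, was called in all libraries at 6.84, 9.27, 8.04 and 8.57, on 13 to 20 fragments. The region 13.9 kb upstream had 7.32 (14 fragments) and 9.21 (25 fragments) in the siControl libraries and no peak with either siRNA set. The region 1.67 kb upstream had 6.74 with TGF-β and 7.75 with set 1, and that in an intron 71.6 kb into the gene had a peak only in TGF-β-treated siControl at 7.23 (17 fragments).

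Knockdown of Etv4 and Etv5 was compared with siControl, all with TGF-β. The comparisons share TGF-β-treated siControl with each other and with the TGF-β comparison, so their values are given side by side and not correlated. With set 1, 15 of 58 integrin peaks of TGF-β-treated siControl (25.9%, 16.3 to 38.4) had no overlapping peak, against 33.6% of all peaks. With set 2 it was 27 of 58 (46.6%, 34.3 to 59.2), against 53.6%. Neither share stood above the background. At the hemidesmosome loci 2 of 10 were absent with set 1 and 3 of 10 with set 2, and at the fibronectin-binding loci 8 of 24 and 10 of 24. Peaks called with an siRNA set and not in TGF-β-treated siControl were 5 of 48 with set 1 (background 15.2%) and 4 of 35 with set 2 (background 10.3%).

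Of the 25 gained integrin regions, 10 (40.0%) were absent with both sets, against 54.4% of all gained regions, and 6 (24.0%) were called with both, against 12.8%. These 6 lay at Itga3, Itga5, Itgav, Itgb1, Itgb3 and Itgb6, and so 4 were at fibronectin-binding genes. Those genes held 13 of the 25 gained regions, and the hemidesmosome genes only 2. The regions called in TGF-β-treated siControl alone numbered 10 of 75 (13.3%, against 16.1% of all regions), with 3 at Itga5, 2 at Itgb3 and 1 each at Itga2, Itga3, Itga6, Itgav and Itgb4. Of the 33 integrin regions called in both siControl libraries, 3 were absent with both sets (9.09%, against 13.9% of all such regions), at the Itgav promoter, in Itgb1 and upstream of Itga2.

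At the regions called in all 4 libraries, the hemidesmosome loci again had the median ratios farther from 0. The median log2 ratio of set 1 to siControl was -0.39 at the hemidesmosome loci (-0.81 to 0.11), -0.097 at the fibronectin-binding loci (-0.32 to 0.14) and -0.18 over all regions. With set 2 the medians were -0.81 at the hemidesmosome loci (-1.07 to -0.11), -0.31 at the fibronectin-binding loci (-0.83 to -0.13) and -0.40 over all regions. The ranges of both gene groups overlapped in each comparison. Of the 7 hemidesmosome regions, 6 belong to a single locus, Itgb4, and most of those have their summit inside Sap30bp. Without the region at the Recql5 start, the hemidesmosome medians were 0.334 for TGF-β and -0.246 for set 1, both inside the middle 50% of all regions, and -0.665 for set 2, outside it. Relative to the median of all regions, the fibronectin-binding median was 0.0788 higher with set 1 and 0.0933 higher with set 2, not lower. Past 1.5-fold lower were 2 of 23 with set 1 (background 7.16%), in Itga6 and 41.1 kb upstream of Itgb4, and 8 of 23 with set 2 (background 26.8%), of which 4 were at the hemidesmosome loci and 2 at the fibronectin-binding ones. Past 1.5-fold higher were 0 with set 1 (background 0.387%) and 0 with set 2 (background 0.104%). In depth-scaled fragments, the interval lay below 1 at 3 of 43 integrin regions called in both lists for set 1 (background 4.05%) and 10 of 31 for set 2 (background 33.2%), so set 2 was near the background. It lay above 1 at 0 for set 1 (background 0.0578%) and 0 for set 2 (background 0.00751%).

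**Figure D4:**
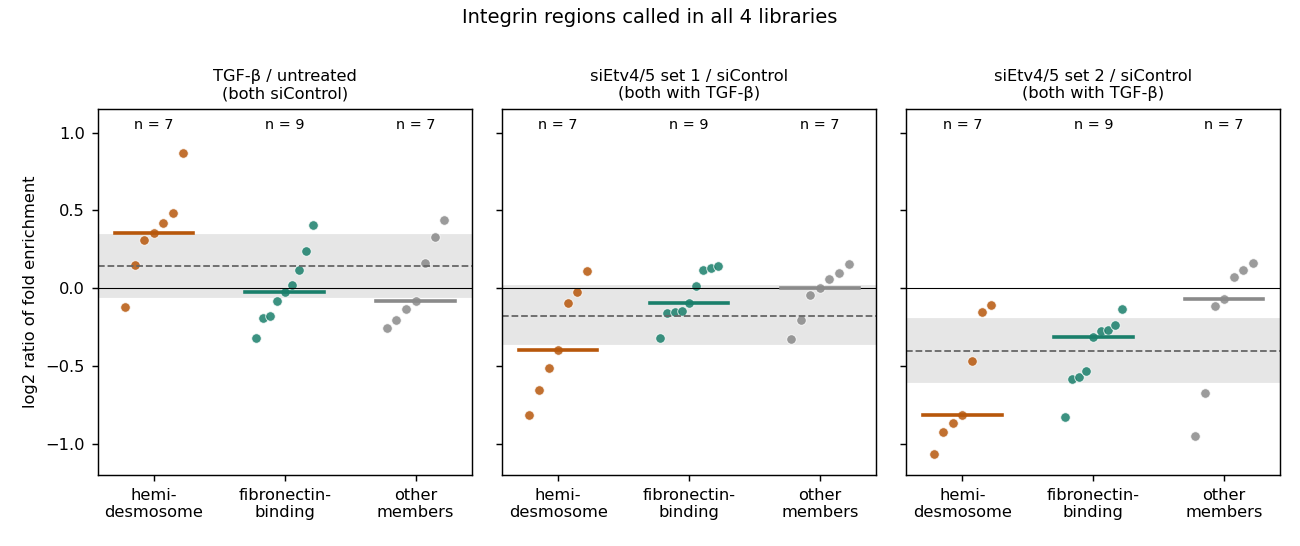
Log2 ratio of fold enrichment (y axis) at the 23 integrin regions called in all 4 libraries, by gene group (x axis), for the 3 comparisons; each point is a region, coloured bars are group medians, the dashed line is the median of all 10594 regions called in all 4 libraries and the grey band their middle 50%. The hemidesmosome median lies outside the band in each panel, at 0.36, -0.39 and -0.81 (for the first and second panels only with the region at the Recql5 start), and the fibronectin-binding median inside it.

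The motif words were counted on both strands in 300 bp around each summit, with TGTGGTT and TGCGGTT for RUNX, AACCNGTT for GRHL and GGAATGT for TEAD. An AP-1 word was found in 32 of 75 integrin regions (42.7%, 32.1 to 53.9), against 34.2% of all regions, and in 27 of 58 (46.6%) over 2 kb from a TSS, against 44.1% of all such regions. An ETS word was in 17 (22.7%, 14.7 to 33.3), against 22.4%. RUNX was found in 5, GRHL in 3 and TEAD in 7, against 11.7%, 2.44% and 7.45% of all regions. Both AP-1 and ETS were found in 9 (12.0%, against 6.83% of all regions), of which 3 were at Itgb3, 2 each at Itgb4 and Itgb6, and 1 each at Itga3 and Itgav. AP-1 was in 7 of 13 hemidesmosome regions and 13 of 30 fibronectin-binding ones, and ETS in 3 and 7. Among the 25 gained integrin regions 13 (52.0%) held AP-1 and 1 (4.00%) held ETS, against 43.4% and 19.2% of all gained regions. Among the 33 called in both siControl libraries 11 held AP-1 and 11 held ETS (33.3% each), against 33.2% and 25.5%. AP-1 and ETS words can share bases, as in Itgav.

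Other adhesion genes gave the surroundings of these values, from lists chosen by function. Shares here are of merged regions, unlike the shares of the peaks of a list given earlier for the members. Over all regions, 29.6% were gained, 11.4% lost, 23.1% called in TGF-β-treated siControl and absent with both siRNA sets, and 29.6% called in all libraries. By region, the 10 members had 25 of 75 gained, 10 of 75 lost and 23 of 75 (30.7%) called in all libraries. The 4 hemidesmosome partners Plec, Dst, Col17a1 and Cd151, which anchor or accompany the Itga6 and Itgb4 chains, held 51 regions, of which 22 (43.1%) were gained, 7 (13.7%) lost, 18 (35.3%) absent with both siRNA sets and 7 (13.7%) called in all libraries, and their peaks numbered 26, 41, 25 and 12 in the order untreated, TGF-β, set 1 and set 2. The 16 adhesion plaque genes, which link integrins to actin, held 121 regions with 44 (36.4%) gained, 11 (9.09%) lost and 24 (19.8%) absent with both sets, and peaks of 67, 100, 78 and 64. The most gained regions of a plaque gene were at Tns1 (tensin), with 2 peaks untreated and 11 with TGF-β, and at Parva (parvin), with 3 and 9. The 8 other integrin genes held 18 regions, 6 (33.3%) gained and 1 (5.56%) lost, and Itga4, Itga9 and Itgb8 had no peak in any library.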

How the data were processed

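FAIRE-seq peak lists of 4 EpRas libraries were used, 1 per group, grouped by their labels. Per the submitters' processing notes the authors mapped reads with Bowtie to mm10 and called peaks with MACS2 2.1.0. The study's methods state trimming to 36 bp, bowtie2 and a q-value below 0.0001, and replicates may have been pooled. The deposited values are, for each peak, the authors' fold enrichment ratio over local background, -log10 values of p and q, a score made from the latter, and the summit. Summit fragments and background were solved from the deposited ratio (pseudocount 1) and p-value, and were whole within 0.05 in 100% of peaks. Fragment length was the shortest peak width, and depth was the background floor times 1.87 Gb over it.

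Peaks were merged into regions, and sharing needed 1 bp of overlap. Genes came from GENCODE M21 on GRCm38, of which mm10 is the same assembly. Ratios of depth-scaled fragments have exact (Clopper-Pearson) intervals, and shares have Wilson intervals. Motifs were searched in 300 bp around the summit. The calling limit given for a list without a peak is its lowest count of fragments at a called summit whose background was within 10% of that expected.

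The members, lists and tests were chosen with earlier results of these data known. Named were the promoter region and strongest other region of each gene, the 5 largest ratios and the 5 strongest peaks called in 1 library of each pair, and all regions of TGF-β-treated siControl alone. These were picked on the values they are described by. Others were named where a count turns on them. Scripts were tested on simulated data. Alternatives tried were a q-value below 1e-06, lists of equal length, half-peak overlap, 10 kb upstream, depth-scaled fragments, centring, and the motif search in the peak. Python 3.11.15 with pandas, SciPy and pysam was used.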

Additional observations from a re-analysis of the deposited data

How the results depend on the processing

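With 1 list per group there was no replicate to leave out. No paired analysis was possible because each group has a single list. With all lists cut to the 14925 best peaks, the 4 lists held 32, 30, 34 and 35 integrin peaks in the order untreated, TGF-β, set 1 and set 2. Of the 32, 12 were lost (37.5%, against 34.3% of all peaks), and of the 30, 10 were gained (33.3% against 34.4%), 8 absent with set 1 (26.7% against 31.4%) and 9 absent with set 2 (30.0% against 33.4%). Under the same cut, 12 peaks were called with set 1 and not in TGF-β-treated siControl (35.3% against 31.4%) and 14 with set 2 (40.0% against 33.0%). With 10 kb upstream in place of 50 kb, untreated siControl held 28 integrin peaks and set 2 held 23. Centred on the median of all regions, the median log2 ratio over the integrin regions was above 0 with set 1 (0.0793) and set 2 (0.0933), as was that over the fibronectin-binding regions (0.0788 and 0.0933). With summit fragments at equal depth the hemidesmosome median log2 ratio with set 2 was -1.12, against -0.531 at the fibronectin-binding loci and -0.707 over all regions. A q-value below 1e-06, half-peak overlap and the motif search in the peak interval left all 10, 6 and 2 summary values computed under them within 1.5 times (counts) or inside their intervals (shares). Without the region at the Recql5 start, an alternative chosen after seeing the data, the hemidesmosome medians over 6 regions were 0.334, -0.246 and -0.665. Depth limits the single regions, most of which rest on fewer than 40 summit fragments.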
